A study of Saccharomyces cerevisiae with 36 samples.

Results

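The old yellow enzyme genes OYE2 (YHR179W) and OYE3 (YPL171C) and the nitroreductase-like genes FRM2 (YCL026C-A) and HBN1 (YCL026C-B) of the budding yeast Saccharomyces cerevisiae were followed over 6 natural isolates grown in 3 media. These 4 genes are 4 of the 6717 features in the deposited table, and all 4 averaged 1 RPKM or more, as did the 5927 features that were tested. They were picked by name, with results of the response to the toxins already known, so their values for that response are given as a description and without a test.

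Old yellow enzymes are flavoproteins that carry flavin mononucleotide and pass electrons from NADPH to the carbon-carbon double bond of unsaturated aldehydes and ketones. Oye2 and Oye3 are the paralogs of budding yeast, and both have been studied in its defence against oxidative stress and reactive carbonyl compounds. Frm2 and Hbn1 resemble bacterial nitroreductases, flavoproteins that reduce nitro groups and quinones, and Frm2 has also been placed in the response of yeast to fatty acids. Hydrolysates of plant biomass commonly hold furan aldehydes, phenolic compounds and weak acids.

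The isolates, all labelled wild, comprised 3 that the labels call resistant to SynH (Y7568, YPS128 and UWO.S05.22-7), 1 of medium resistance (NCYC3290) and 2 sensitive ones (NCYC361 and K11). Each was grown in SynH, a synthetic lignocellulosic hydrolysate with toxins, in SynH -HTs, the hydrolysate without them, and in YPD, a rich laboratory medium. Each strain and medium had 2 biological replicates, so each medium had 12 libraries. The NCYC361 libraries in SynH have SynHv in their titles and were taken as SynH from their medium label. The labels give 3 generations of growth to an OD600 near 0.5 and collection of the replicates on different days, without saying which libraries share a day. Each strain is a single isolate, so a resistance class is known here only through 3 or 2 strains.

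Levels are in RPKM, read counts relative to gene length and library size, and 1 read had been added to each count by the authors. The 36 libraries held 2205293 to 32838988 reads in genes, and the deepest, YPS128 in SynH replicate 2, was far above the next at 8047447. A gene of 1 kb with 0 reads is therefore listed between 0.0223 and 0.311 RPKM. In YPD the NCYC361 libraries stood apart from the rest, with both above the other 10 libraries in 43.8% of the tested genes. Tests of SynH -HTs against YPD averaged over strains, and of differences among strains, are given with and without NCYC361. The mean differences between SynH and YPD and the correlations between genes include it.

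The window from 250 bases before the start codon to 50 bases after its first base is shown for each gene. Levels described below moved together for OYE3 and HBN1, less closely for OYE2 and apart for FRM2. Whether the windows bear on those levels was not tested. The sequences are those of the RefSeq reference R64, 5′ to 3′ on the coding strand, and the isolates may differ from it. Capitals mark matches to 7 motifs searched on both strands: TTACTAA and TTAGTCA, sites of the oxidative stress regulator Yap1, TTACGTAA, a site of the Yap family, AGGGG, the stress response element, CCGCGG, the core of the drug response element, CGGNNTTA, a site of Stb5, and GGTGGCAAA, the site of the proteasome regulator Rpn4. Lower case shows all other bases.
OYE2, chrVIII:462252-462551, plus strand: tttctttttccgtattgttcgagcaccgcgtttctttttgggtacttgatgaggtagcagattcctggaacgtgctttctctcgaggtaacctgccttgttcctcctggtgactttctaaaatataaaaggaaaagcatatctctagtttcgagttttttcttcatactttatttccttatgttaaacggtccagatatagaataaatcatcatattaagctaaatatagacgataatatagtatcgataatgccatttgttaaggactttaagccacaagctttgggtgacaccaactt
OYE3, chrXVI:227322-227621, minus strand: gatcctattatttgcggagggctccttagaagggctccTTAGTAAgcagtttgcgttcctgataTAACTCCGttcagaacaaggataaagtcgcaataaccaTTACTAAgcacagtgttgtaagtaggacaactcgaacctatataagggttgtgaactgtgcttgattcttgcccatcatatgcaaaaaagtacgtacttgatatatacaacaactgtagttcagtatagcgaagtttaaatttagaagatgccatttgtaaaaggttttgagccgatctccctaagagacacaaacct
HBN1, chrIII:73937-74236, minus strand: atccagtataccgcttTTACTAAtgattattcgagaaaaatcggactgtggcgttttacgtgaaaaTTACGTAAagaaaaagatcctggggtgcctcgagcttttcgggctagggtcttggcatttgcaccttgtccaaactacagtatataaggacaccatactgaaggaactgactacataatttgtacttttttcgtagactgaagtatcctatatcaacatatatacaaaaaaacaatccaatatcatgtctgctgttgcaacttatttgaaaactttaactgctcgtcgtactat
FRM2, chrIII:75236-75535, minus strand: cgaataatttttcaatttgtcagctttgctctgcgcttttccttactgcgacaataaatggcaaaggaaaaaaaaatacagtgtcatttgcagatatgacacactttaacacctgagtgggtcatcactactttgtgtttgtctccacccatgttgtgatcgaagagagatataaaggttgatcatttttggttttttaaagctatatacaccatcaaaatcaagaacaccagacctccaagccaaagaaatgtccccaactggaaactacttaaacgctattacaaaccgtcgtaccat

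In the OYE3 window TTACTAA or its reverse complement lay at -212 to -206 and at -148 to -142, counted from the start codon, and a match to CGGNNTTA lay between them at -186 to -179. The HBN1 window held TTACTAA at -234 to -228 and the palindrome TTACGTAA at -184 to -177. The windows of OYE2 and FRM2 held none of the 7 motifs. Over 500 bases upstream, OYE2 had TTACTAA at -327 to -321 and TTACGTAA at -495 to -488, and HBN1 had further matches to TTACTAA at -459 to -453 and -285 to -279. FRM2 had a single AGGGG at -464 to -460 there. Of 6001 coding genes, 7.45% held TTACTAA in the window of the same length, 0.667% held TTACGTAA and 8.25% held CGGNNTTA. In the 500 bases the shares of 6000 genes were 11.8% for TTACTAA, 1.25% for TTACGTAA and 34.1% for AGGGG. A match is a string of letters, and binding was not measured.

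OYE2 and OYE3 both have a coding length of 1203 bases and were 73.5% identical over it in R64, with no shared run of 50 bases and a longest shared run of 14 bases. FRM2 and HBN1 both have 582 coding bases, were 63.4% identical in the alignment and shared at most 11 bases in a row. OYE2 lies on chromosome VIII at 462502 to 463704 and OYE3 on chromosome XVI at 226169 to 227371. HBN1 lies on chromosome III at 73405 to 73986 and FRM2 beside it at 74704 to 75285, on the same strand with 717 bases between them.

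OYE2 was by far the most abundant of the 4, with 162 to 1469 RPKM over the 36 libraries and 944 to 33298 reads in each. HBN1 ranged from 2.12 to 665 RPKM, FRM2 from 0.235 to 239 RPKM and OYE3 from 0.0834 to 67.7 RPKM. OYE2 made up 64% of the summed RPKM of the 4 genes in K11 in SynH and 98.7% in YPS128 in YPD, the lowest and highest of the 18 combinations. The ratio of OYE2 to OYE3, both per length, was 17.5 in Y7568 in SynH and 1694 in UWO.S05.22-7 in SynH -HTs, its extremes. FRM2 had 0 reads in 6 libraries and at most 24 reads in any library outside K11, and OYE3 had 0 reads in 1 library, so values at the low end of both genes are close to the added read. The spread between replicates on the log2 scale was 0.31 for OYE2, 0.35 for HBN1, 0.55 for OYE3 and 0.72 for FRM2 (residual SD, 18 degrees of freedom), against a median of 0.42 over all tested genes.

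**Figure D1:**
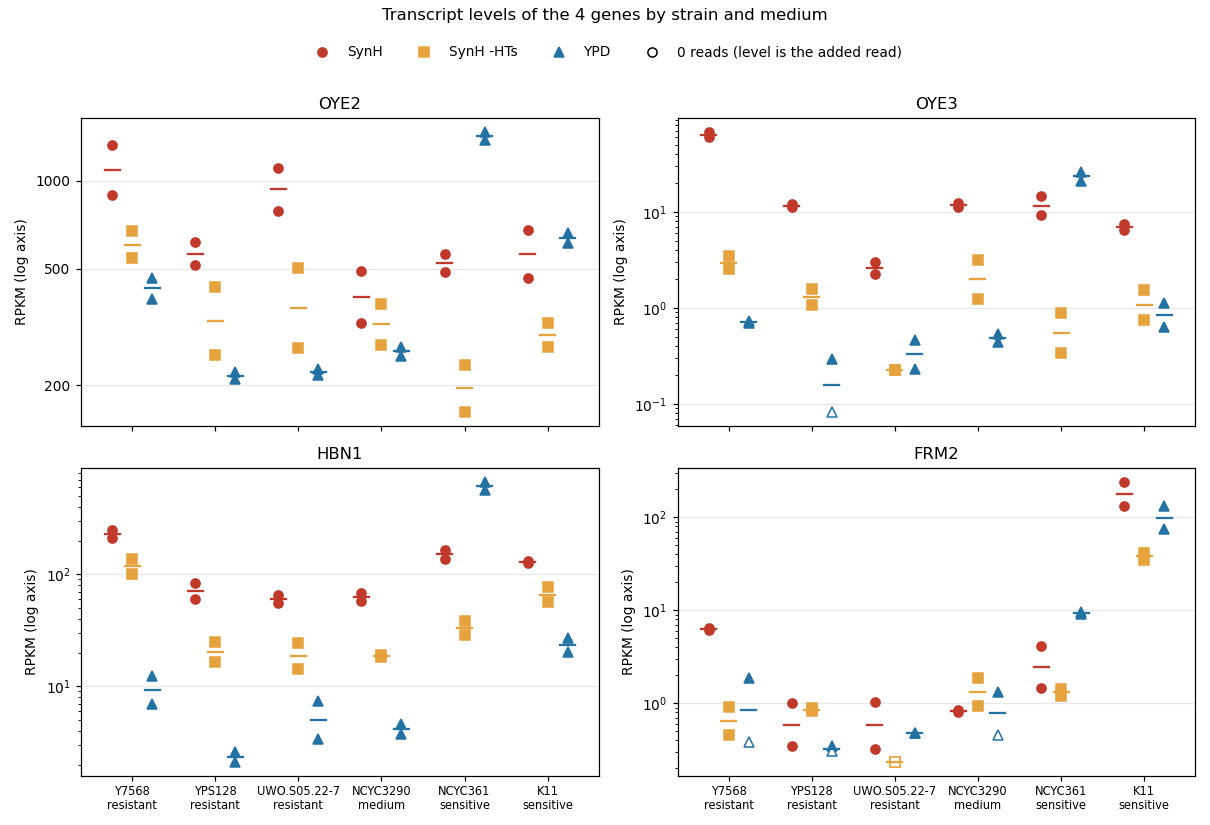
Level of each gene in RPKM (log axis) by strain, with the 2 libraries of each medium as points and their mean log2 level as a bar; open points are libraries with 0 reads. OYE3 and HBN1 are higher in SynH than in SynH -HTs in every strain and highest of all strains in YPD in NCYC361, where HBN1 reached 566 and 665 RPKM, while FRM2 is above 30 RPKM only in K11.

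OYE3, the less abundant of the old yellow enzyme genes, showed the widest difference between SynH and SynH -HTs among the 4. Y7568 had 59.4 and 67.7 RPKM of OYE3 in SynH, against 2.51 and 3.51 RPKM in SynH -HTs. NCYC361 had 9.22 and 14.5 RPKM in SynH, against 0.879 and 0.344 RPKM in SynH -HTs. YPS128 had 11.3 and 11.9 RPKM in SynH, against 1.06 and 1.58 RPKM in SynH -HTs. The lowest SynH value in each of these strains was several times the highest SynH -HTs value. NCYC3290 had 12.2 and 11.3 RPKM of OYE3 in SynH, against 3.18 and 1.25 RPKM in SynH -HTs. K11 had 7.49 and 6.40 RPKM in SynH, against 1.52 and 0.756 RPKM in SynH -HTs. UWO.S05.22-7 had 2.28 and 3.00 RPKM in SynH, against 0.228 and 0.227 RPKM, a single read in each library, in SynH -HTs. Both SynH libraries were above both SynH -HTs libraries in all 6 strains, a pattern shown by 4.47% of all tested genes. RPKM is a share of each library, so a change in total RNA per cell cannot be told apart from a change in a gene. The mean of OYE3 over strains was 10.99-fold higher in SynH (log2 difference 3.46 ± 0.23 SE), with strains between 2.56 and 4.42. On the scale of log2(RPKM + 1), which weighs low values less, the difference was 2.50, and the SynH -HTs libraries held 1 to 23 reads of OYE3. For UWO.S05.22-7 the ratio of reads per library total was 20.5 with a 95% exact interval of 5.30 to 175, which covers counting error only.

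HBN1, the nitroreductase-like gene expressed in all strains, was also higher in SynH than in SynH -HTs in every strain. Y7568 had 211 and 247 RPKM of HBN1 in SynH, against 137 and 101 RPKM in SynH -HTs. NCYC361 had 138 and 165 RPKM in SynH, against 38.2 and 28.4 RPKM in SynH -HTs. K11 had 126 and 132 RPKM in SynH, against 76.7 and 56.3 RPKM in SynH -HTs. These 3 strains held the highest HBN1 levels in both media, and their groups did not overlap between media. YPS128 had 60.3 and 84.5 RPKM in SynH, against 24.7 and 16.3 RPKM in SynH -HTs. UWO.S05.22-7 had 55.7 and 65.6 RPKM in SynH, against 24.5 and 14.3 RPKM in SynH -HTs, and NCYC3290 had 67.6 and 58.2 RPKM in SynH, against 18.3 and 19.2 RPKM in SynH -HTs. In SynH the ranges of these last 3 strains overlapped each other. Averaged over strains HBN1 was 2.96-fold higher in SynH (log2 difference 1.56 ± 0.14 SE), with the smallest difference in Y7568 (0.96 ± 0.33) and the largest in NCYC361 (2.20 ± 0.33).

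OYE2, the abundant paralog, showed a smaller difference. Y7568 had 897 and 1326 RPKM of OYE2 in SynH, against 672 and 543 RPKM in SynH -HTs. UWO.S05.22-7 had 789 and 1109.7 RPKM in SynH, against 503 and 268 RPKM in SynH -HTs. These resistant strains had the highest OYE2 levels of all strains in SynH, and the ranges of the 2 strains overlapped. YPS128 had 515 and 616 RPKM in SynH, against 434 and 254 RPKM in SynH -HTs. NCYC361 had 487 and 560.0 RPKM in SynH, against 235 and 162 RPKM in SynH -HTs, and K11 had 465 and 678 RPKM in SynH, against 326 and 270.0 RPKM in SynH -HTs. NCYC3290 had 326 and 491 RPKM in SynH, against 380.4 and 275 RPKM in SynH -HTs, so its ranges overlapped. In the other 5 strains they did not, a separation found in at least 5 strains for 9.04% of all tested genes. The mean over strains was 1.91-fold higher in SynH (log2 difference 0.93 ± 0.12 SE, strains 0.31 to 1.42), while the median of all tested genes lay at 0.09.

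FRM2, the nitroreductase-like neighbour of HBN1, was well measured only in K11. That strain had 133 and 239 RPKM of FRM2 in SynH (248 and 668 reads), against 41.5 and 34.9 RPKM in SynH -HTs (78 and 66 reads). The ratio of its reads per library total was 5.21, with a 95% exact interval of 4.37 to 6.25. Y7568 had 6.45 and 6.14 RPKM in SynH, against 0.452 and 0.907 RPKM in SynH -HTs, from 41 and 3 reads in all, a ratio of 15.4 with an interval of 4.91 to 77.7. NCYC361 had 4.17 and 1.48 RPKM in SynH, against 1.21 and 1.42 RPKM in SynH -HTs. YPS128, NCYC3290 and UWO.S05.22-7 lay between 0.325 and 1.03 RPKM in SynH, against 0.235 to 1.88 RPKM in SynH -HTs, with 0 to 8 reads per library, and no fold is given for them. The mean log2 difference over strains was 1.09 ± 0.28 SE, with strains between -0.68 and 3.30.

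**Figure D2:**
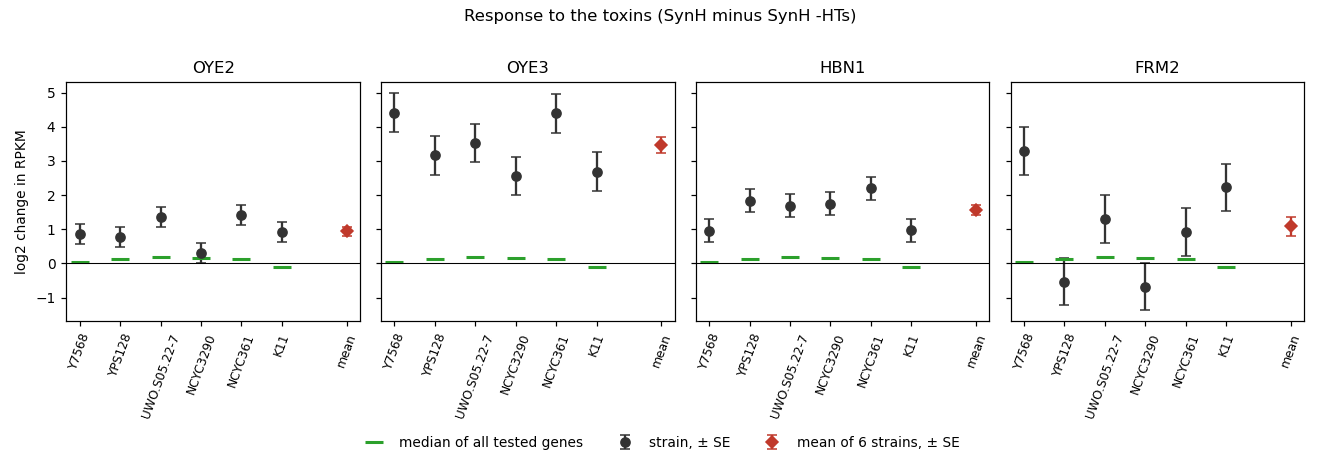
Log2 difference in RPKM, SynH minus SynH -HTs, for each gene by strain (circles, ± SE of the fit), the mean over strains (diamond) and the median of all tested genes in that strain (green bar). OYE3 lies between 2.56 and 4.42 in all 6 strains. FRM2 lies below 0 in YPS128 (9 reads in SynH, 2 in SynH -HTs) and NCYC3290 (5 and 6 reads), too few to settle its direction there.

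The SynH -HTs libraries of replicate 2 lay below those of replicate 1 for OYE2 in all 6 strains, by 0.27 to 0.91 on the log2 scale. In SynH the order was the reverse, with replicate 2 above replicate 1 for OYE2 in all 6 strains, by 0.20 to 0.59. From libraries of replicate 1 alone, the mean difference between SynH and SynH -HTs was 0.44 for OYE2, 3.15 for OYE3, 1.26 for HBN1 and 1.13 for FRM2. From libraries of replicate 2 alone it was 1.43, 3.76, 1.87 and 1.04 for the same genes. The median of all tested genes moved in the same way, at -0.30 and 0.53. Relative to that median OYE2 differed by 0.74 and 0.90, OYE3 by 3.46 and 3.24, HBN1 by 1.56 and 1.35, and FRM2 by 1.44 and 0.52.

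The step from YPD to the toxin-free hydrolysate was tested, with the caveat that it shares the SynH -HTs libraries with the comparison above. HBN1 rose in SynH -HTs, by 2.55-fold averaged over the 6 strains (log2 change 1.35 ± 0.14 SE, limma adjusted p = 3.75e-08). Of all tested genes 45.2% were called in this comparison, 6.78% as higher and 38.4% as lower, and their median change was -0.31. OYE2 fell by 0.30 on the log2 scale (± 0.12 SE, limma adjusted p = 0.0425), about as much as the median gene. Its change was 0.07 after median scaling and 0.21 without NCYC361 (limma adjusted p = 0.426 and 0.257), so neither the direction nor the call holds for OYE2. OYE3 (0.26 ± 0.23, adjusted p = 0.369) and FRM2 (-0.58 ± 0.28, adjusted p = 0.0965) did not pass in limma. FRM2 passed as lower with log2(RPKM + 1) (-0.53, limma adjusted p = 0.00812), and OYE3 passed as higher after median scaling (0.63, 0.0336) and quantile normalization (0.58, 0.0324). Without NCYC361 the OYE3 change was 1.39 (limma adjusted p = 0.000282) and that of HBN1 was 2.47 (2.40e-10). FRM2 was then at -0.13 and did not pass (limma adjusted p = 0.784). With the strains as the unit of replication HBN1 kept its value but not its call (limma adjusted p = 0.305).

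The means hide differences among the strains and, for HBN1, a split between NCYC361 and the rest. In NCYC361 all 4 genes fell in SynH -HTs relative to YPD. HBN1 had 38.2 and 28.4 RPKM there in SynH -HTs, against 566 and 665 RPKM in YPD, and was 18.6-fold lower (log2 change -4.22 ± 0.33, limma adjusted p = 5.95e-10). OYE3 had 0.879 and 0.344 RPKM in SynH -HTs, against 26.0 and 21.0 RPKM in YPD, and was 42.5-fold lower (-5.41 ± 0.56, limma adjusted p = 4.85e-08). These are drops between groups that lie far apart. That of OYE3 rests on 6 reads in SynH -HTs against 222 in YPD, a ratio of 0.0206 per library total. Its 95% exact interval was 0.0075 to 0.0456, counting error only, so the size of the fold is uncertain. OYE2 had 235 and 162 RPKM in SynH -HTs, against 1469 and 1380.4 RPKM in YPD, and was 7.28-fold lower (limma adjusted p = 3.53e-08). FRM2 had 1.21 and 1.42 RPKM in SynH -HTs, against 9.11 and 9.68 RPKM in YPD, and was 7.16-fold lower (limma adjusted p = 0.00175). That fold rests on 6 reads in SynH -HTs against 42 in YPD. The ratio per library total was 0.109, with a 95% exact interval of 0.0379 to 0.258. In NCYC361 53.3% of all tested genes were called, 8.64% as higher and 44.6% as lower, with a median change of -0.89. After median scaling and quantile normalization FRM2 in NCYC361 lost its call (limma adjusted p = 0.0619 and 0.135).

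Y7568 showed the opposite picture for HBN1, with 137 and 101 RPKM in SynH -HTs, against 7.00 and 12.2 RPKM in YPD. That was 12.7-fold higher (3.67 ± 0.33, limma adjusted p = 4.44e-08), in a strain where 1.65% of all tested genes were called as higher. YPS128 had 24.7 and 16.3 RPKM of HBN1 in SynH -HTs, against 2.59 and 2.12 RPKM in YPD, 8.56-fold higher (limma adjusted p = 5.69e-07, 2.58% of genes called as higher). The rises in NCYC3290 (4.52-fold, limma adjusted p = 0.000134, 1.75% of genes higher) and UWO.S05.22-7 (3.75-fold, adjusted p = 0.000531, 1.35% higher) were smaller. K11 had 76.7 and 56.3 RPKM in SynH -HTs, against 20.3 and 27.0 RPKM in YPD (2.81-fold higher, limma adjusted p = 0.00391, 7.44% of genes called as higher). HBN1 thus rose in 5 strains and fell in NCYC361, and in each of the 5 both SynH -HTs libraries were above both YPD libraries. The share of all tested genes with that separation was not computed. Without K11 YPD replicate 1 or K11 SynH -HTs replicate 1 the K11 rise did not pass (limma adjusted p = 0.0733 and 0.0738).

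OYE3 rose in SynH -HTs relative to YPD in 3 strains. The log2 changes were 3.05 ± 0.56 in YPS128, 2.05 ± 0.56 in Y7568 and 2.03 ± 0.56 in NCYC3290 (limma adjusted p = 0.000955, 0.0345 and 0.0394). All of them rest on few reads: in YPS128 on 11 reads in SynH -HTs against 1 read in YPD, a ratio of 21.2 per library total with a 95% exact interval of 3.08 to 912. The call in YPS128 ended without YPD replicate 1 (limma adjusted p = 0.0739). In Y7568 it ended without any 1 of the 4 libraries (limma adjusted p = 0.0857 to 0.263), and in NCYC3290 without YPD replicate 1, YPD replicate 2 or SynH -HTs replicate 1 (0.152, 0.280 and 0.329). OYE3 in K11 (0.35 ± 0.56) and UWO.S05.22-7 (-0.53 ± 0.56) did not pass. OYE2 fell in K11 as well as in NCYC361. It had 326 and 270.0 RPKM in SynH -HTs in K11, against 613 and 665 RPKM in YPD (log2 change -1.11 ± 0.29, limma adjusted p = 0.0135, 4.4% of genes called as lower). That call ended without YPD replicate 1, YPD replicate 2 or SynH -HTs replicate 2 (limma adjusted p = 0.0669, 0.104 and 0.107). In the other 4 strains the log2 change of OYE2 was 0.31 to 0.72 and did not pass. After median scaling it passed as higher in all 4, at 1.38 in UWO.S05.22-7, 0.91 in YPS128, 0.69 in Y7568 and 0.59 in NCYC3290 (limma adjusted p = 7.82e-06, 0.000975, 0.0147 and 0.0467). It also passed in UWO.S05.22-7 after quantile normalization (limma adjusted p = 0.0226), and in UWO.S05.22-7 and YPS128 without the SynH -HTs libraries of replicate 2 (0.0118 and 0.0274). FRM2 in K11 had 41.5 and 34.9 RPKM in SynH -HTs, against 74.8 and 131 RPKM in YPD, groups that do not overlap, and its change of -1.38 ± 0.69 did not pass (limma adjusted p = 0.245), whereas with log2(RPKM + 1) it did (-1.36, limma adjusted p = 0.0180).

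The response to the toxin-free hydrolysate differed among the 6 strains for all 4 genes in limma's F test. The adjusted p was 9.42e-07 for OYE2, 1.99e-07 for OYE3, 2.51e-10 for HBN1 and 0.0164 for FRM2, with 29.6% of all tested genes called. Without NCYC361 the limma adjusted p was 0.0407 for OYE2, 0.0313 for OYE3, 0.0364 for HBN1 and 0.358 for FRM2.

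**Figure D3:**
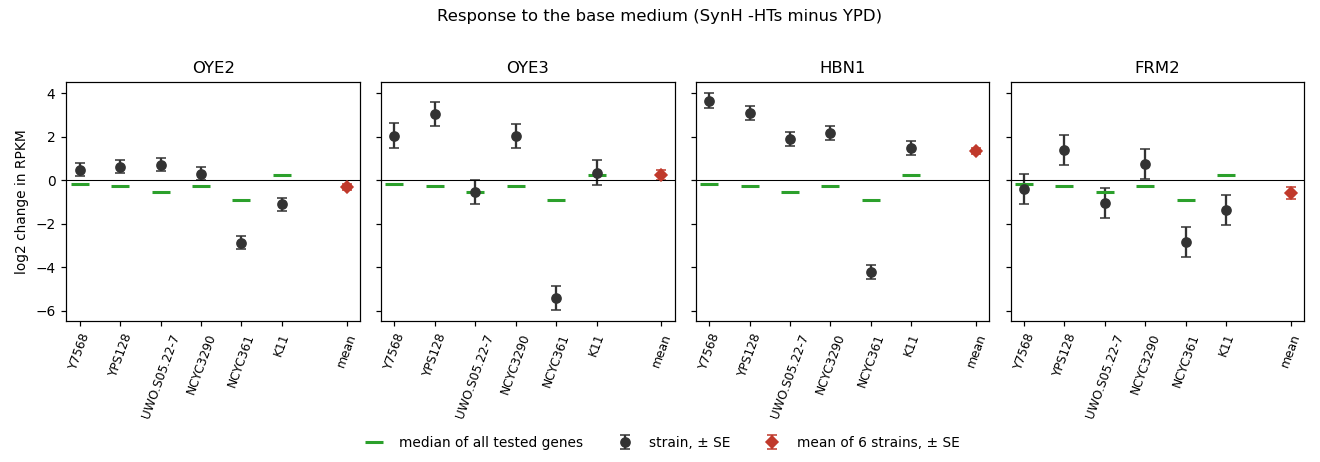
Log2 change in RPKM, SynH -HTs minus YPD, for each gene by strain (circles, ± SE of the fit), the mean over strains (diamond) and the median of all tested genes in that strain (green bar). In NCYC361 all 4 genes lie between -5.41 and -2.84, below the strain's median of -0.89, while HBN1 is between 1.49 and 3.67 in the other 5 strains.

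In YPD, where no toxin and no hydrolysate is present and no library is shared with the toxin comparison, the strains spanned wide ranges of HBN1 and FRM2. NCYC361 had 566 and 665 RPKM of HBN1, K11 20.3 and 27.0 RPKM, and Y7568 7.00 and 12.2 RPKM. UWO.S05.22-7 had 3.37 and 7.43 RPKM, NCYC3290 3.76 and 4.58 RPKM, and YPS128 2.59 and 2.12 RPKM. NCYC361 and K11 stood apart in that order, the next 3 strains overlapped their neighbours, and YPS128 lay below all others. OYE3 in YPD was measured well only in NCYC361, at 26.0 and 21.0 RPKM from 111 reads in each library, against 0.0834 to 1.13 RPKM and at most 6 reads per library in the other 5 strains. OYE2 in YPD was again highest in NCYC361, at 1469 and 1380.4 RPKM, followed by K11 at 613 and 665 RPKM. Y7568 had 395 and 465 RPKM, NCYC3290 252 and 269.7 RPKM, UWO.S05.22-7 228 and 218 RPKM and YPS128 222 and 209.6 RPKM, and only the last pair overlapped. FRM2 was highest in K11, at 74.8 and 131 RPKM, followed by NCYC361 at 9.11 and 9.68 RPKM and by at most 1.85 RPKM in the other 4 strains. K11 was thus the strain with the highest FRM2 in each medium, and its lowest library, at 34.9 RPKM, exceeded every library of another strain. In K11 both libraries were above the other 10 in 22.4% of tested genes in SynH, 28.1% in SynH -HTs and 9.85% in YPD.

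Differences among strains in YPD passed limma's F test for all 4 genes. The adjusted p was 3.39e-14 for HBN1, 2.07e-09 for FRM2, 3.84e-09 for OYE3 and 1.01e-07 for OYE2, with 50.6% of all tested genes called. Without NCYC361 the limma adjusted p was 3.89e-06 for HBN1, 7.50e-08 for FRM2, 0.0134 for OYE3 and 0.00107 for OYE2. In that fit 1397 of the 5927 tested genes were called. Among 5927 genes ordered by the difference of NCYC361 from the mean of the other strains in YPD, HBN1 was at rank 25, OYE3 at 43, FRM2 at 417 and OYE2 at 615. The median difference over all tested genes was 0.61 on the log2 scale, so NCYC361 was higher than the other strains for most genes in this medium.

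Resistant and sensitive strains were set against each other in YPD, with the strain as the replicate. OYE2 was lower by 1.80 on the log2 scale in the 3 resistant strains than in the 2 sensitive ones, with a mean log2 RPKM of 8.10 in resistant and 9.90 in sensitive strains. HBN1 differed by -4.65 (2.25 in resistant and 6.90 in sensitive strains) and FRM2 by -5.91 (-0.98 in resistant and 4.93 in sensitive strains). OYE3 differed by -3.74 (-1.59 in resistant and 2.15 in sensitive strains). None passed in limma (adjusted p = 0.166, 0.192, 0.130 and 0.274 in that order), nor did any of the 5927 tested genes, of which 1042 had an unadjusted p under 0.05. The exact two-sided permutation test over strains gave p = 0.1 for each, the smallest that 10 arrangements of 5 strains allow. For OYE2, HBN1 and FRM2 all 6 resistant libraries lay below all 4 sensitive ones, as in 19% of tested genes, and for OYE3 they did not. Without K11 the difference passed for all 4 genes, with NCYC361 alone on the sensitive side and assumed to vary like the other strains (limma adjusted p = 0.00422 to 0.0115). In that fit 517 of the 5927 genes passed as higher and 2141 as lower. Without NCYC361, with K11 alone on the sensitive side, the difference was -1.22 for OYE2, -2.29 for HBN1, -7.61 for FRM2 and -1.34 for OYE3. It was thus smaller than with both sensitive strains for every gene but FRM2. The resistant libraries held 0 to 8 reads of FRM2 in YPD, so the size of its difference depends on the added read. In SynH no member separated the 2 classes in this way: Y7568, a resistant strain, had the highest levels of OYE2, OYE3 and HBN1.

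SynH was also compared with YPD directly, as values without a test, because the SynH libraries are shared with the toxin comparison. HBN1 was 7.55-fold higher in SynH averaged over strains (log2 difference 2.92 ± 0.14 SE), between 2.46 and 4.93 in 5 strains and -2.02 in NCYC361. OYE3 was higher by 3.71 ± 0.23, with 6.46 in Y7568 and -1.01 in NCYC361. OYE2 was higher by 0.63 ± 0.12, with 2.07 in UWO.S05.22-7, -0.19 in K11 and -1.45 in NCYC361. FRM2 was at 0.51 ± 0.28, with 2.90 in Y7568 and -1.92 in NCYC361. For all 4 genes NCYC361 was the strain with the lowest value of this difference.

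Genes of related functions were read in the toxin comparison, in which 29.6% of all tested genes were called in limma, 19.1% as higher in SynH and 10.6% as lower, with a median of 0.09. Among 11 NADPH-dependent carbonyl reductases, enzymes that use the same cofactor as the old yellow enzymes on the carbonyl group, 10 rose and 0 fell, with a median of 0.88. ADH7, an alcohol dehydrogenase, had a log2 change of 8.64 ± 0.13 and ARI1, an aldehyde reductase, of 3.77 ± 0.14. ADH7 had 0 reads in both K11 libraries in SynH and in SynH -HTs, so its mean includes that strain at the added read. Over all strains, 6 SynH -HTs libraries held at most 3 reads of ADH7 and none more than 25. The size of its change therefore depends on the added read beyond K11 too. Among 12 drug efflux genes 10 rose and 1 fell, with a median of 1.22, led by SNG1 (3.72 ± 0.20), whose product is involved in drug resistance, and the pump gene SNQ2 (2.70 ± 0.08). Among 5 quinone reductases and flavodoxin-like proteins 4 rose and 0 fell, with a median of 0.60, led by ZTA1 (1.56 ± 0.17), a quinone reductase of the zeta-crystallin family, and PST2 (1.24 ± 0.07), a flavodoxin-like protein.

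Of 14 Yap1 targets of oxidative stress other than the old yellow enzymes, 12 rose in SynH and 0 fell, with a median of 0.46. The multidrug transporter gene FLR1 (1.66 ± 0.11) and the mitochondrial peroxiredoxin gene PRX1 (1.39 ± 0.14) led them. Of 8 genes for the synthesis of flavin cofactors, on which old yellow enzymes depend, 6 rose and 0 fell, with a median of 0.46. RIB5, riboflavin synthase (1.31 ± 0.14), and RIB1, which opens the pathway (0.75 ± 0.18), led. Of 12 genes of NADPH supply 6 rose and 2 fell, with a median of 0.49, and ZWF1, glucose-6-phosphate dehydrogenase, rose (1.20 ± 0.09) while RKI1, ribose-5-phosphate isomerase, fell (-0.94 ± 0.14). Of 11 glutathione enzymes 6 rose and 0 fell, with a median of 0.54, led by the glutathione transferase genes ECM4 (2.24 ± 0.20) and GTT2 (0.84 ± 0.16). Fatty acid synthesis and uptake had 2 of 8 genes higher, FAA1 (0.62 ± 0.16), an acyl-CoA synthetase, and ELO1 (0.45 ± 0.10), a fatty acid elongase, and 1 lower, with a median of 0.14. After median scaling 7 Yap1 targets rose and 1 fell, 4 flavin genes rose, 5 genes of NADPH supply rose and 1 fell, and 1 fatty acid gene rose. With the 6 strains averaged by medium and replicate number before the test, 6 of 11 carbonyl reductases and 7 of 12 efflux genes passed as higher, against 2 Yap1 targets, 0 fatty acid genes and 1 gene each of the quinone reductase, flavin, NADPH supply and glutathione lists, and 0 genes of these lists passed as lower.

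**Figure D4:**
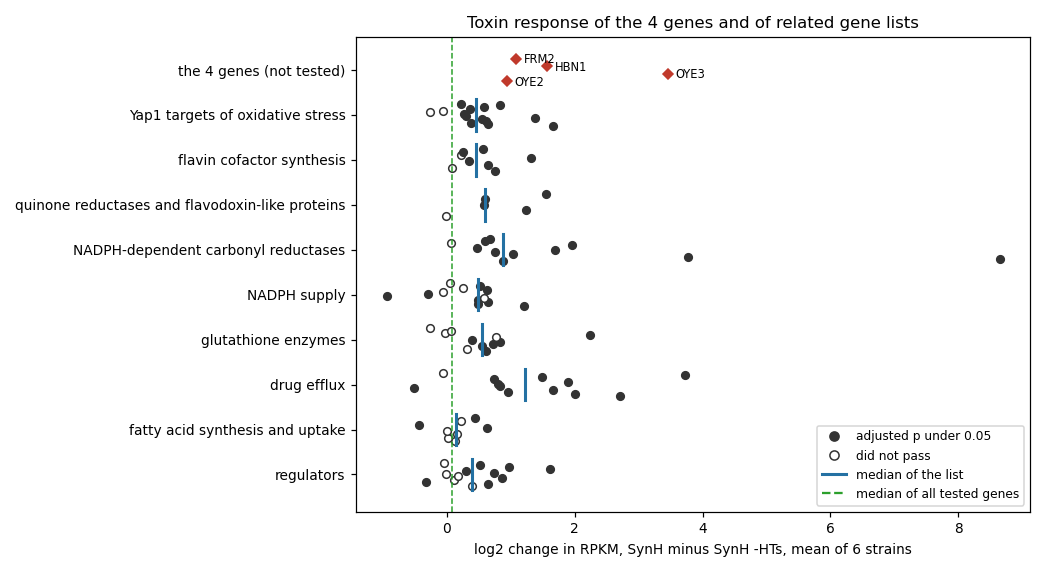
Log2 change in RPKM, SynH minus SynH -HTs, averaged over 6 strains, for the 4 genes (diamonds, not tested) and for each gene of the related lists (filled where the limma adjusted p was under 0.05); the blue bar is the list's median and the dashed line the median of all tested genes at 0.09. OYE3 at 3.46 is above every gene shown except ADH7, ARI1 and SNG1.

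The same lists were read between SynH -HTs and YPD, where 6.78% of all tested genes were called as higher and 38.4% as lower, so that counts such as 4 lower of 8 or 4 of 11 are near the share over all genes. Carbonyl reductases had 5 genes higher and 5 lower in SynH -HTs, with GRE2, a methylglyoxal reductase, at 2.26 ± 0.08 and YGL039W, a related reductase, at -1.46 ± 0.11. Drug efflux had 1 gene higher and 9 lower, with PDR5 at -2.20 ± 0.09 and SNQ2 at -1.66 ± 0.08. Quinone reductases had 0 higher and 3 lower, with ZTA1 at -1.75 ± 0.17 and the flavodoxin-like gene YCP4 at -0.95 ± 0.11. Yap1 targets had 2 higher, PRX1 at 0.88 ± 0.14 and the peroxiredoxin gene AHP1 at 0.57 ± 0.09, and 3 lower, which became 5 higher and 0 lower without NCYC361. Flavin synthesis had 0 higher and 4 lower, with RIB1 at -1.19 ± 0.18 and RIB2 at -0.43 ± 0.16. NADPH supply had 5 higher and 4 lower, with the aldehyde dehydrogenase gene ALD6 at -2.08 ± 0.13 and GND2, which had at most 8 reads in a SynH -HTs library, at -1.15 ± 0.25. Glutathione enzymes had 0 higher and 4 lower, with ECM4 at -1.11 ± 0.20 and GTO3 at -2.33 ± 0.35, whose SynH -HTs libraries were at 0 reads in 11 of 12. Fatty acid genes had 2 higher, FAA1 among them (1.82 ± 0.16), and 6 lower, with the desaturase gene OLE1 at -1.01 ± 0.09. Without NCYC361, 5 carbonyl reductases were higher and 3 lower, 1 efflux gene higher and 7 lower, and 1 quinone reductase higher and 2 lower. In that fit 0 flavin genes were higher and 2 lower, and 5 NADPH supply genes higher and 2 lower. Glutathione enzymes had 2 higher and 1 lower there, and fatty acid genes 2 higher and 2 lower. Of all tested genes 390 were then higher and 1248 lower. The median of all tested genes with the 6 strains was -0.31 here, and the counts depended on the scaling. Scaled to the median, 1458 of all tested genes were higher and 967 lower. After median scaling 8 Yap1 targets were higher and 0 lower, 5 glutathione enzymes higher and 2 lower, 7 NADPH supply genes higher and 2 lower, and 5 carbonyl reductases higher and 2 lower. In that scaling 2 flavin genes were higher and 1 lower, 1 quinone reductase higher and 2 lower, 1 efflux gene higher and 5 lower, and 2 fatty acid genes higher and 1 lower. With the strains averaged by medium and replicate number, 0 Yap1 targets and 0 flavin genes passed in either direction, and 4 efflux genes, 2 NADPH supply genes and 1 gene each of the carbonyl reductase, quinone reductase, glutathione and fatty acid lists passed as lower.

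The transcription factor genes that bear on these pathways were tested by name. YAP1 itself did not pass in the toxin comparison (0.39 ± 0.16, limma adjusted p = 0.0618), and STB5, which encodes an activator of NADPH-producing enzymes and lies next to OYE2, was at 0.11 ± 0.15. MSN4 (1.62 ± 0.15), one of the general stress factors, and RPN4 (0.98 ± 0.12) rose in SynH. So did YRR1 (0.86 ± 0.17), PDR3 (0.73 ± 0.11), CAD1 (0.64 ± 0.20), MGA2 (0.53 ± 0.19) and MSN2 (0.30 ± 0.11), while SKN7 fell by 0.33 (± 0.08). YRM1 (0.17 ± 0.15), PDR1 (-0.02 ± 0.15) and SPT23 (-0.04 ± 0.12) did not pass, so 7 of 13 rose and 1 fell. With the strains averaged by medium and replicate number 1 rose and 0 fell. Between SynH -HTs and YPD 0 rose and 9 fell, from YRR1 (-1.21 ± 0.17) and the Yap family member CAD1 (-1.16 ± 0.20) to RPN4 (-0.34 ± 0.12), with YAP1 at -0.41 ± 0.16, beside 38.4% of all tested genes called as lower. After median scaling 4 regulators rose and 4 fell, and after quantile normalization 3 rose and 5 fell. Beside them, 1458 of all tested genes were higher and 967 lower in the first scaling, and 1197 and 1080 in the second. Without NCYC361 0 rose and 5 fell. With strains as the unit 1 fell, and with strains averaged by medium and replicate number 0 fell. With the SynH -HTs libraries of replicate 1 left out 12 regulators rose and 0 fell in SynH, and with those of replicate 2 left out 4 rose and 3 fell. The calls over all tested genes moved as well, with 3163 higher in the first of these fits and 2064 lower in the second.

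Over the 18 means of strain and medium the levels of OYE3 and HBN1 followed each other most closely (Pearson r = 0.86 on the log2 scale). OYE2 had r = 0.78 with HBN1 and 0.76 with OYE3, and FRM2 had 0.33 to 0.46 with the others. These means share libraries and strains, and r is a description. Likeness was ranked among genes averaging 10 RPKM or more, 4017 for OYE3 and 4016 for each of the others. HBN1 was second closest to OYE3 after IML2 (0.90), followed by CMK2 (0.84), a calmodulin-dependent kinase gene, RPN4 (0.83) and YDC1 (0.82), a ceramidase gene. Closest to HBN1 were SFA1 (0.93), which encodes an alcohol and formaldehyde dehydrogenase, YML131W (0.91), the autophagy kinase gene ATG1 (0.90), PEX30 (0.89) and NBP35 (0.89). Closest to OYE2 were YNL208W (0.81), the aspartate aminotransferase gene AAT2 (0.80), ATG41 (0.79), HBN1 (0.78) and ARC40 (0.77). The pattern of FRM2, high in K11 in all media, was closest to NUT2 (0.95), URA10 (0.95), SSY1 (0.94), SAG1 (0.94) and MNT4 (0.94).

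The coding genes on either side were read beside the 4 genes. FUS1, a mating gene whose 3′ end faces that of HBN1 with 63 bases between them, was at 0.178 to 1.39 RPKM in all libraries, including NCYC361 in YPD, where HBN1 was highest. AGP1, an amino acid permease gene with 732 bases between it and FRM2, ranged from 17.0 to 174 RPKM. AGP1 rose in SynH against SynH -HTs (1.26 ± 0.12, limma adjusted p = 2.37e-08) and averaged 111 RPKM in K11 in SynH and 59.7 RPKM in K11 in YPD. On the flanks of OYE3, COX10, which acts in haem synthesis, ranged from 8.07 to 25.6 RPKM and DAP1, a haem-binding protein gene, from 6.85 to 54.9 RPKM. STB5 (4.66 to 16.8 RPKM) and YHR180W (0.279 to 13.1 RPKM) flank OYE2. In NCYC361 in YPD the means were 25.5 RPKM for COX10, 38.8 for DAP1, 11.2 for STB5, 5.65 for YHR180W and 21.4 for AGP1. In K11 in YPD they were 13.7, 14.1, 8.03, 1.76 and 59.7 RPKM in that order. Whether counting used the strand is not given in the sources used here, and none of the 4 coding regions overlaps a neighbour listed here.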

How the data were processed

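RNA from 36 cultures was depleted of ribosomal RNA and made into libraries with a stranded kit, per the labels' protocols. Trimmomatic 0.30, HTSeq 0.6.0 and Bowtie2 are the tools listed, without roles, in the submitters' processing notes. Genome build and strand setting are not given in the sources used. The deposited table holds log2 RPKM values made by the authors for 6717 features, and 6 further rows name no gene. Reads recovered from them with R64 coding lengths were whole within 0.05 reads for 99.8% of values in 6025 matched rows. Intervals cover counting error only. Sequences and coordinates are from RefSeq R64, and the authors' build may differ.

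Values were tested as deposited with limma 3.58.1 in R 4.3.3, after a check on simulated data, with an intensity trend, 1 mean for each of 18 groups and Benjamini-Hochberg adjustment over 5927 features averaging at least 1 RPKM (threshold 0.05). The members and lists were chosen with earlier results of these data known. Named are the 4 genes, their neighbours, the 5 most alike by Pearson correlation over 18 means, from each list the 2 largest called changes per comparison, and every regulator. Replicate numbers did not pair libraries of a strain. The correlation of deviations was -0.18 to 0.28 between SynH -HTs and YPD and -0.38 to -0.03 between SynH and SynH -HTs. Across strains, SynH -HTs libraries of the same number moved together (0.43 to 0.72), so the 12 are not fully independent. SynH libraries of the same number did so for some pairs of strains (-0.08 to 0.63). P-values that use either medium may be too small.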

Additional observations from a re-analysis of the deposited data

Results flagged for a closer look

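The change between SynH -HTs and YPD differed among the 6 strains for each of the 4 genes, by limma's F test of that difference (adjusted p = 9.42e-07 for OYE2, 1.99e-07 for OYE3, 2.51e-10 for HBN1 and 0.0164 for FRM2). HBN1 was lower in SynH -HTs in NCYC361 (log2 change -4.22) and higher in the other 5 strains (1.49 to 3.67). OYE3 changed by -5.41 in NCYC361 and by 3.05 in YPS128, and OYE2 by -2.86 in NCYC361 and -1.11 in K11 against 0.31 to 0.72 in the other 4 strains. FRM2 changed by -2.84 in NCYC361 and by 1.39 in YPS128, where it had 2 reads in SynH -HTs and 1 in YPD. The part of the high YPD levels of NCYC361, whose libraries exceeded the other 10 in 43.8% of tested genes, in these differences was not tested beyond leaving the strain out.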

How the results depend on the processing

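Direction and call under the alternatives are given relative to SynH -HTs minus YPD (the base change), SynH minus SynH -HTs (the toxin difference), strain differences in the base change and in YPD, and resistant minus sensitive strains in YPD. Leaving out NCYC361 was chosen after seeing the data. The base change of OYE2 was 0.0704 after median scaling and 0.209 without NCYC361, and -0.304 with adjusted p = 0.0831 under a replicate block, 0.662 with strains as the unit and 0.507 with means over strains per medium and replicate number. That of OYE3 was -0.113 with log2(RPKM + 1), 0.631 after median scaling, 0.583 after quantile normalization and 1.39 without NCYC361 (adjusted p = 0.0336, 0.0324 and 0.000282). That of FRM2 was -0.534 with log2(RPKM + 1) (adjusted p = 0.00812), and that of HBN1 with strains as the unit was 1.35 (adjusted p = 0.305). Genes higher and lower in the base change numbered 402 and 2276, against 1458 and 967 after median scaling, 1197 and 1080 after quantile normalization, 60 and 405 with strains as the unit, 65 and 152 with means over strains, and 1248 lower without NCYC361. Genes higher and lower in the toxin difference numbered 1131 and 626, against 1189 lower after median scaling, 1217 lower after quantile normalization, and 176 and 14 with means over strains. OYE3 was at 2.50 in that difference with log2(RPKM + 1). The strain differences of FRM2 in the base change had adjusted p = 0.0653 after median scaling, 0.0749 after quantile normalization and 0.358 without NCYC361, and 323 genes differed there and 1397 in YPD without that strain, against 1752 and 2997. The causes were not tested. Within strains, OYE3 in UWO.S05.22-7 was at 0.132 and 0.293 after median scaling and quantile normalization, and in K11 at -0.163 after quantile normalization. OYE3 in K11 was at -0.0699 without YPD replicate 1 and at -0.159 and 0.852 without SynH -HTs replicate 1 and 2, FRM2 in NCYC3290 at -0.00044 without YPD replicate 2, and FRM2 in Y7568 at 0.744 and -1.53 without YPD replicate 1 and 2 and 0.108 without SynH -HTs replicate 1.

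Leaving out 1 library, or 1 replicate number of SynH -HTs, gave base changes of -0.575 to -0.0315 for OYE2 (-0.379 to -0.228 with single libraries), 0.0342 to 0.479 for OYE3, -0.771 to -0.391 for FRM2 and 1.13 to 1.57 for HBN1. The OYE2 call was lost in 18 of 38 such fits, and FRM2 passed without Y7568 YPD replicate 2 (adjusted p = 0.0248). Toxin differences were 0.663 to 1.21 for OYE2, 3.24 to 3.68 for OYE3, 0.95 to 1.23 for FRM2 and 1.35 to 1.78 for HBN1. Adjusted p for strain differences in the base change was 1.69e-07 to 2.20e-05 for OYE2, 7.58e-08 to 1.31e-05 for OYE3, 7.29e-11 to 2.90e-08 for HBN1 and 0.00457 to 0.0959 for FRM2, which was lost without NCYC361 YPD replicate 2 (0.0570) and without either number of SynH -HTs (0.0959 and 0.0659). In YPD it was 4.16e-09 to 6.27e-06 for OYE2, 1.64e-09 to 1.19e-06 for OYE3, 6.48e-10 to 2.50e-07 for FRM2 and 1.92e-14 to 2.01e-11 for HBN1. Counts ranged over 359 to 817 genes higher and 1148 to 4038 lower in the base change, 932 to 3163 higher and 518 to 2064 lower in the toxin difference, and 1242 to 2814 and 2281 to 4229 for strain differences in the base change and in YPD. The extremes above 1.5 times came from leaving out a replicate number of SynH -HTs. Between the classes, leaving out a strain or a YPD replicate gave -2.38 to -1.22 for OYE2, -6.13 to -1.34 for OYE3, -7.61 to -4.21 for FRM2 and -7.01 to -2.29 for HBN1, with 0 to 517 genes higher and 0 to 2141 lower, both extremes without K11.

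Under the replicate block the calls of OYE3 within Y7568 and NCYC3290 were also lost (adjusted p = 0.0659 and 0.0725), and no other call of the 4 genes changed. With a mean of at least 10 RPKM required, OYE3 was not tested. At most 24 reads of FRM2 outside K11 and 6 of OYE3 in YPD outside NCYC361 limit both genes there.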

Other observations

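The lists differed in how often their genes were high in NCYC361 in YPD. Both NCYC361 libraries were above the other 10 for 5 of 5 quinone reductases and flavodoxin-like proteins, with a median difference from the mean of the other strains of 2.18 on the log2 scale. The same held for 10 of 13 regulators, 7 of 11 carbonyl reductases, 7 of 14 Yap1 targets, 6 of 11 glutathione enzymes and 4 of 8 flavin genes, beside 43.8% of all tested genes, a share that the Yap1, glutathione and flavin lists are near. Below that share, it held for 2 of 12 NADPH supply genes, 2 of 12 drug efflux genes and 2 of 8 fatty acid genes. Among list members chosen after their values were seen, GTO3 (6.28), ECM4 (5.77), YGL039W (5.44) and YDL124W (5.31) stood closest to HBN1 (6.59) and OYE3 (5.75) in that difference. In K11 both YPD libraries were above the other 10 for 6 of 12 drug efflux genes, beside 9.85% of all tested genes.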
